A study of Caenorhabditis elegans with 2 samples.

Results

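The genes of the proteasome, of ubiquitin activation and transfer, and of the chaperonin, prefoldin and DnaJ chaperones were examined for binding of the tagged zinc finger protein Y79H2A.3. Members were the protein-coding genes whose names begin with pas, pbs, rpt, rpn, ubc, uba, dnj, cct or pfd followed by a number, which gave 100 of 19973 nuclear protein-coding genes of Caenorhabditis elegans. Of these, 33 encode proteasome subunits (7 pas, 7 pbs, 6 rpt and 13 rpn), 24 encode ubiquitin enzymes (3 uba and 21 ubc) and 43 encode chaperones (8 cct, 6 pfd and 29 dnj). Chromatin was precipitated with an anti-GFP antibody from whole young adults, 63 hours old, of a strain whose Y79H2A.3 gene on chromosome III carries TY1, EGFP and 3xFLAG tags inserted with CRISPR, after larvae had been synchronised by starvation. The study has 1 group of 2 biological replicates of this strain, with no second genotype, stage or treatment, and no control precipitation was analysed here, although the labels name a possible one. Peaks that other GFP precipitations share could therefore not be set apart. All animals carried the tagged protein, and whole bodies were used, so strong binding in few cells and weak binding in many cells cannot be told apart. A gene was counted when its window, which reached 1000 bp upstream and 200 bp downstream of each annotated transcript start, held a peak summit. Peak height is the deposited signal value, whose scale is not stated.

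The proteasome is the protease that degrades proteins tagged with ubiquitin. Its barrel-shaped core is built from alpha subunits (pas) and the beta subunits that hold the proteolytic sites (pbs), and its cap from ATPases (rpt) and non-ATPase subunits (rpn). Ubiquitin is activated by E1 enzymes (uba) and passed to substrates through E2 conjugating enzymes (ubc), and related enzymes of the same families handle the ubiquitin-like proteins SUMO, NEDD8 and UFM1. The chaperonin ring (cct) folds actin and tubulin, which prefoldin (pfd) delivers to it, and proteins with a J domain (dnj) bring clients to Hsp70 and stimulate its ATPase.

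The conservative calls described here come from the deposited peak lists, not from sequence. The bases around the summits at 8 of these members are shown, and those at ubc-3 and pas-5 are left out. Each is written 5′ to 3′ on the strand of the member gene, in WBcel235 (ce11) coordinates, centred on the summit, with CG dinucleotides in capitals. The rpn-11 sequence was trimmed to the 64 bases that lie outside annotated exons.
ubc-6 (chrII:7478850-7478950, plus strand): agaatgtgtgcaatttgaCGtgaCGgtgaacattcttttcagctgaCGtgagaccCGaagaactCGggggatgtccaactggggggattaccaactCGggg
dnj-13 (chrII:11545455-11545555, plus strand): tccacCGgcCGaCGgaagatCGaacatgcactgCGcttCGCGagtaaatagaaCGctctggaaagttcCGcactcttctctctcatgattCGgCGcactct
cct-8 (chrIV:1094294-1094394, minus strand): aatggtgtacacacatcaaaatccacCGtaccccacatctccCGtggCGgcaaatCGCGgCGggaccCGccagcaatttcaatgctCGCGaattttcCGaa
cct-5 (chrIII:4508525-4508625, minus strand): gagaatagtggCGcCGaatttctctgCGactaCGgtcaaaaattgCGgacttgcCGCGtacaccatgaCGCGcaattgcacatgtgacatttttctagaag
rpn-3 (chrIII:8447110-8447210, plus strand): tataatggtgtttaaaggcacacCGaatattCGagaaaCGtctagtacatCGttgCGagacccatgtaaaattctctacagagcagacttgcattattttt
dnj-10 (chrIII:8630942-8631042, plus strand): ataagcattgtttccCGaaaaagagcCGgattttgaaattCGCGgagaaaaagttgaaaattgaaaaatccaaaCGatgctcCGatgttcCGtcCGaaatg
rpn-11 (chrII:4044547-4044610, minus strand): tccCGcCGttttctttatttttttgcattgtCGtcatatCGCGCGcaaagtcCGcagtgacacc
dnj-9 (chrII:4851737-4851837, plus strand): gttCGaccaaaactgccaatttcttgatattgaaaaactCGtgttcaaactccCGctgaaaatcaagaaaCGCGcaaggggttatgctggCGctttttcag

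The median number of CG dinucleotides was higher at member summits than over the summits of all coding genes, within the range of the latter. The 101 bp around the 10 member summits held a median of 8.5 CG dinucleotides (4 to 11). The 478 conservative summits in windows of any protein-coding gene, which include the members' own, had a median of 6 (0 to 18). All 29773 protein-coding starts had a median of 3 (0 to 18). Over the whole 101 bp, dnj-13, rpn-11 and ubc-3 held 11 each, cct-8 held 10 and cct-5 held 9. The trimmed rpn-11 sequence shown holds 7 of its 11. GC content had a median of 50% at member summits and 45% at coding-window summits. The motif CGCGCC, searched on both strands, was in 0 of 10 member summit sequences, against 71 of 478 (14.9%) in coding windows and 1.20% of all protein-coding starts. The motif GAANNTTC, which reads the same on both strands and is the pair of inverted GAA units found in heat shock elements, was in 4 of 10 member sequences, against 35 of 478 (7.32%) in coding windows, 94 of all 1021 conservative summits (9.21%) and 6.70% of all protein-coding starts. The matches were gaacattc at ubc-6, gaaagttc at dnj-13, gaattttc at cct-8 and gaatattc at rpn-3. Among the 142 starts of all member genes the share was 7.75%, close to that of all protein-coding starts. These are descriptions of letters in a window, with no test.

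In the conservative list, the peaks that passed an irreproducible discovery rate (IDR) of 0.01 in the comparison of the replicates, 10 of 100 members had a summit, against 2.88% of all protein-coding genes (575 of 19973). The 10 were ubc-6, dnj-13, cct-8, cct-5, rpn-3, dnj-10, rpn-11, ubc-3, dnj-9 and pas-5. They came from all 3 groups, with 3 of 33 proteasome genes (9.09%), 2 of 24 ubiquitin enzyme genes (8.33%) and 5 of 43 chaperone genes (11.6%). By family they were 1 of 7 pas, 2 of 13 rpn, 2 of 21 ubc, 2 of 8 cct and 3 of 29 dnj genes, and no pbs, rpt, uba or pfd gene had one. With counts this small, the groups were not tested against one another.

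Their peaks were close in height to those at other coding genes. Signal values at the 10 sites had a median of 84.5 (quartiles 69.9 and 119), against 89.2 (quartiles 75 and 116) over all protein-coding genes with a conservative summit. The ubc-6 peak ranked 51 of 1021 conservative peaks, the dnj-13, cct-8 and cct-5 peaks ranked 156, 182 and 193, and the other 6 ranked 449 or lower. Of the 10 summits, 9 lay within 500 bp upstream of a start (90.0%), against 377 of 575 (65.6%) over all protein-coding genes with one.

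**Figure D1:**
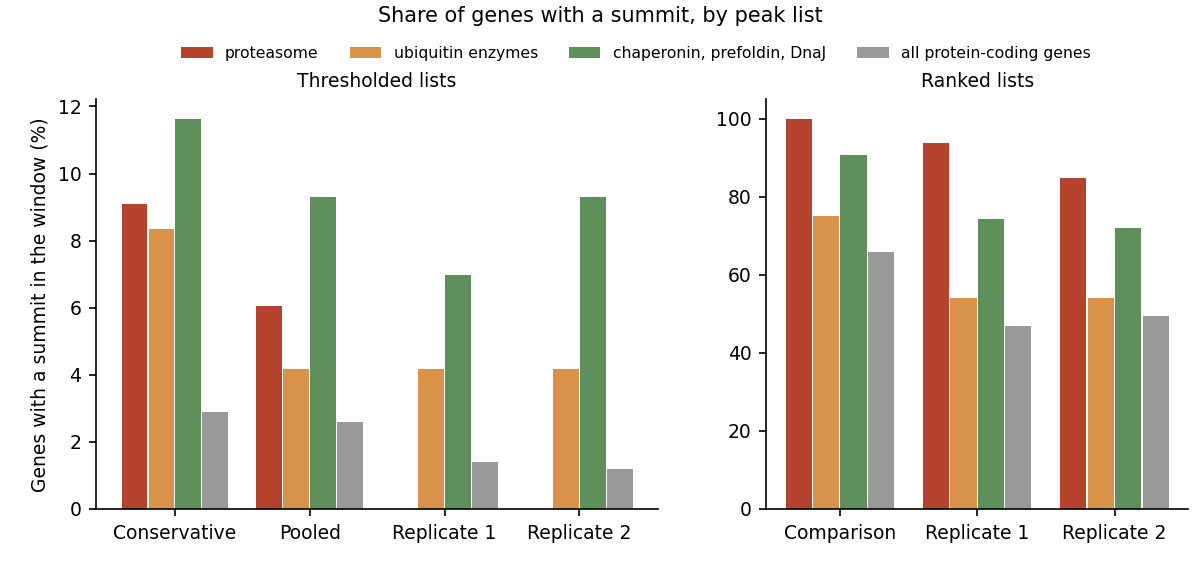
Percent of genes with a summit in the window, for the proteasome, ubiquitin enzyme and chaperone members (coloured bars) and all protein-coding genes (grey bars), in each thresholded list (left) and ranked list (right, with its own axis). Proteasome genes reach 100% in the ranked comparison list, against 66.0% of all protein-coding genes. They are at 0 in the thresholded list of each replicate, where all protein-coding genes are at 1.41% (replicate 1) and 1.19% (replicate 2).

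The thresholded lists of single replicates kept fewer members, and also fewer of all protein-coding genes. Neither held a summit at any of the 33 proteasome genes, a count too small to set against the low shares of all protein-coding genes. The thresholded list of replicate 1 held summits at 4 members, against 1.41% of all protein-coding genes, and that of replicate 2 at 5 members, against 1.19%. The same 4 genes, ubc-6, dnj-13, cct-8 and cct-5, were in both, and replicate 2 added dnj-10. The thresholded list from pooled reads held 7 members, which were these 5, rpn-3 and rpn-11, against 2.60% of all protein-coding genes. The summits of ubc-3, dnj-9 and pas-5 were in the conservative list alone among the 4 thresholded lists.

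Among proteasome genes, conservative summits were found at 2 of 19 cap genes (10.5%) and 1 of 14 core genes (7.14%). With counts this small, cap and core were not tested against each other. The rpn-3 gene encodes a non-ATPase subunit of the cap. Its peak (chrIII:8447012-8447307) had a signal value of 87.9 in the conservative list, with 42.4 at the site in replicate 1 and 45.1 in replicate 2, and its summit lay 193 bp upstream of rpn-3. The same summit lay 251 bp upstream of hsp-110, which encodes an Hsp110 chaperone and reads the other way, and 65 bp upstream of the noncoding RNA gene C30C11.14.

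The rpn-11 gene encodes the subunit that cuts ubiquitin chains from substrates as they enter the proteasome. Its peak (chrII:4044412-4044707) had a signal value of 80.6, with 43.4 in replicate 1 and 42.5 in replicate 2. The summit lay 14 bp upstream of the nearest rpn-11 start, in no window of another coding gene, and the replicates' own summits were 5 bp apart. Both cap genes had nearly equal heights in the replicates, and neither was in the thresholded list of either replicate alone.

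The pas-5 call, at the gene of an alpha subunit of the core, rests on a record of low height. The record in the window (chrI:10565365-10565660) had a signal value of 3.05, rank 1017 of 1021, with its summit 837 bp upstream of pas-5. It overlaps a second conservative record of 75.4 whose summit lies 1039 bp upstream, just outside the window, and both records have a −log10 IDR of 2.73. The replicate peaks there had 37.4 in replicate 1 and 45.6 in replicate 2, with summits 987 and 1062 bp upstream. Conservative records with a signal value under 10 were 34 of 1021 (3.33%), and without them 9 members had a summit.

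Of the ubiquitin enzyme genes, the conjugating enzyme genes ubc-6 and ubc-3 had a conservative summit. In yeast, Ubc6 is a conjugating enzyme of the endoplasmic reticulum membrane that acts in degradation of misfolded proteins. The ubc-6 peak (chrII:7478845-7478970) was the tallest at any member, with a signal value of 185, and 83.6 in replicate 1 and 103 in replicate 2. Its summit lay 287 bp upstream of ubc-6 and 363 bp upstream of aka-1, which reads the other way. At 126 bp the peak was narrower than the 296 bp of 976 of the 1021 peaks, and 65.6% of its 31-mers occur once in the genome, against a median of 100% over the list.

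The ubc-3 gene encodes a conjugating enzyme of the Cdc34 type, which in yeast works with cullin ligases in the cell cycle. Its peak (chrI:1697887-1698182) had a signal value of 66.3, with 35.7 in replicate 1 and 47.5 in replicate 2, and its summit lay 314 bp upstream. The replicates' summits lay on either side of it and 243 bp apart, against a median of 35.5 bp over the 10 member sites and 31 bp over conservative peaks in coding windows.

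The chaperonin genes cct-8 and cct-5 encode subunits of the same folding ring. The cct-8 peak (chrIV:1094196-1094491) had a signal value of 119, with 69.1 in replicate 1 and 57.5 in replicate 2, and the cct-5 peak (chrIII:4508427-4508722) had 117, with 73.5 in replicate 1 and 50.9 in replicate 2. These sites and rpn-11 were the ones among the 10 that were taller in replicate 1, whereas the other 7 were taller in replicate 2. Over conservative peaks in windows of any protein-coding gene, 296 of 473 (62.6%) were taller in replicate 2. Neither cct summit was closest to the chaperonin gene. The cct-8 summit lay 424 bp upstream of cct-8 and 197 bp upstream of Y55F3AR.2, and the cct-5 summit lay 461 bp upstream of cct-5 and 280 bp upstream of F25F2.1, with each neighbour reading the other way. When each summit was given only to the nearest coding start, both chaperonin genes lost theirs and 8 members were left.

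Among J-domain genes, dnj-13 had the tallest peak. It encodes a partner of Hsp70 that acts with HSP-110 in taking protein aggregates apart. The dnj-13 peak (chrII:11545357-11545652) had a signal value of 125, with 59.8 in replicate 1 and 65.9 in replicate 2, and the replicates' summits were 7 bp apart. The summit lay 196 bp upstream of dnj-13 and 677 bp upstream of F54D5.9, inside an annotated noncoding exon. The windows of 2 noncoding RNA genes on opposite strands, both named F54D5.22, hold it too. The dnj-13 start itself lies inside another coding gene, dhgd-1.

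The dnj-10 gene encodes a J-domain protein related to the mitochondrial Tid1 of other animals. Its peak (chrIII:8630844-8631139) had a signal value of 81.0, with 40.3 in replicate 1 and 46.9 in replicate 2, and lay 173 bp upstream. The dnj-9 peak (chrII:4851639-4851934) had a signal value of 62.5, with 30.2 in replicate 1 and 37.2 in replicate 2, and lay 269 bp upstream. Neither summit lay in the window of another coding gene.

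**Figure D2:**
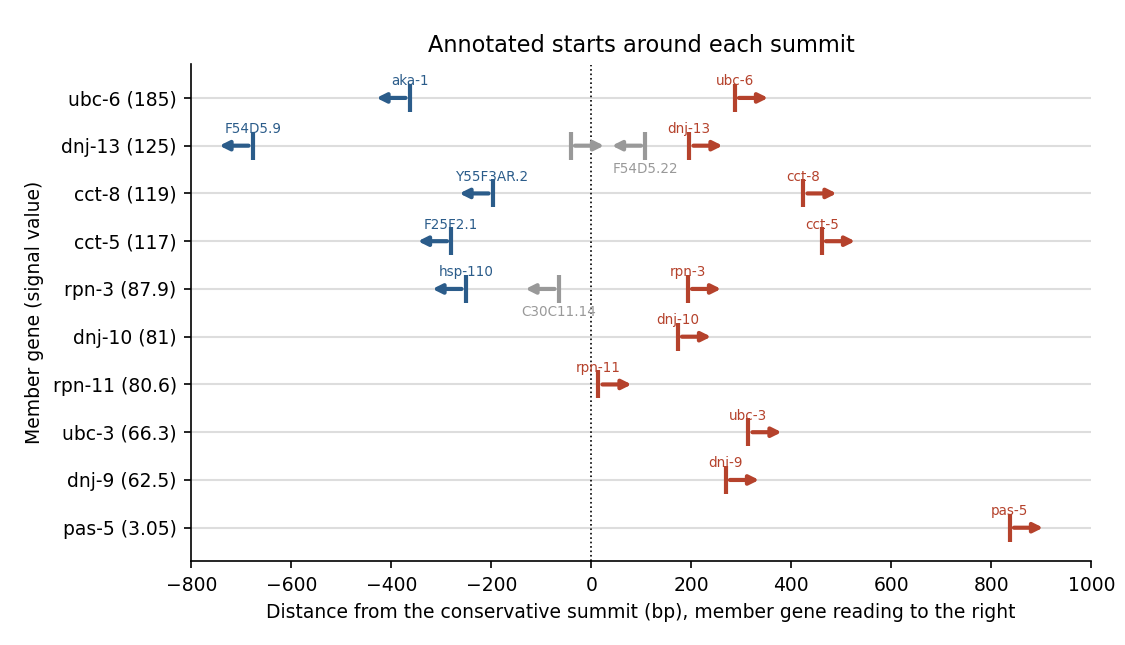
Annotated starts whose windows hold each conservative member summit, as distance in bp from the summit, with the member gene (red) drawn to read to the right, other protein-coding genes in blue and noncoding genes in grey. At ubc-6, dnj-13, cct-8, cct-5 and rpn-3 a coding gene that reads the other way starts on the far side of the summit, and the summits at cct-8 and cct-5 are nearer to that gene.

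A summit shared with another coding gene was found for 5 of the 10 members (50%) and for 262 of 575 protein-coding genes with a conservative summit (45.6%). In the annotation, 49 of 100 members have a head-to-head coding neighbour whose start is within 1000 bp of their own 5′-most start, against 17.2% of all protein-coding genes. Conservative summits were found at 4 of these 49 members (8.16%) and at 209 of 3435 genes of this kind (6.08%), so within this class the members' share was near that of other genes. Where the nearest upstream gene was on the same strand and within 1000 bp, summits were found at 3 of 29 members (10.3%) and 183 of 5550 genes (3.30%). Where it was farther away, they were found at 1 of 11 members and 1.97% of genes with a head-to-head neighbour, and at 1 of 9 members and 0.955% of genes with a same-strand one. The remaining summit was that of dnj-13, 1 of 2 members whose 5′-most start lies inside another coding gene, a class in which 2.95% of all protein-coding genes had one. The part of gene spacing in the members' share was not tested further.

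**Figure D3:**
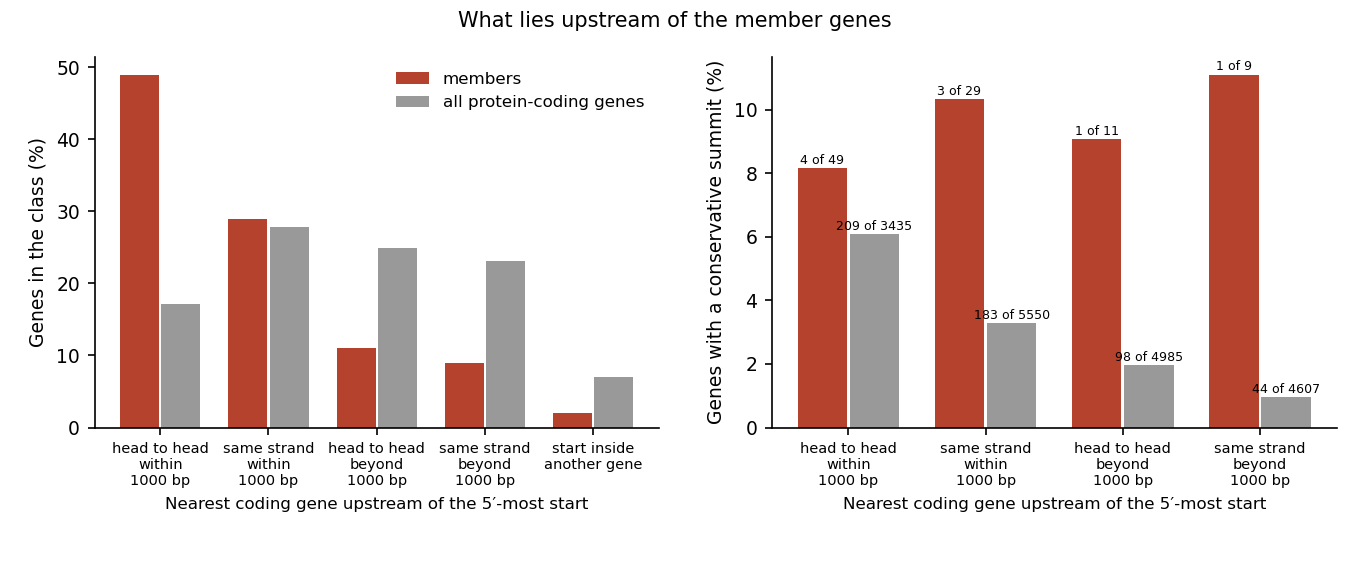
Left, percent of members (red) and of all protein-coding genes (grey) in each class of nearest upstream coding gene. Right, percent of each class with a conservative summit, with the counts above the bars. The class of starts inside another coding gene, which holds dnj-13, is drawn on the left only. Members fall most often (49%) in the class of close head-to-head genes, where all protein-coding genes had their largest share (6.08%).

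Chromosomes and numbers of starts were uneven as well. On the autosomes 10 of 94 members had a conservative summit, against 3.25% of all autosomal protein-coding genes, and on X 0 of 6 members had one, against 0.549%. On II there were 4 of 22 members against 2.52%, on III 3 of 19 against 4.81%, on I 2 of 26 against 4.93%, on IV 1 of 16 against 3.54%, and on V 0 of 11 against 1.76%. Members with 1 annotated start had summits in 6 of 68 cases (8.82%), against 2.30% of all protein-coding genes with 1 start. Members with several starts had them in 4 of 32 cases (12.5%), against 4.42%.

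Below the threshold, nearly all members had some peak. The ranked list of the comparison, which keeps 77086 peaks regardless of IDR, had a summit at 90 of 100 members, against 66.0% of all protein-coding genes. All 33 proteasome genes had one, with 18 of 24 ubiquitin enzyme genes and 39 of 43 chaperone genes. In the ranked list of replicate 1, 76 members had a summit, against 46.8% of all protein-coding genes, and in that of replicate 2, 72 members had one, against 49.6%. Both replicate lists held a summit at 63 members, against 32.0% of all protein-coding genes. Of the proteasome genes 27 of 33 had summits in both replicates, of the ubiquitin enzyme genes 10 of 24 and of the chaperone genes 26 of 43.

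The members' ranked peaks were also taller. The tallest ranked summit per gene had a median signal value of 41.5 at members (quartiles 30.1 and 53.7), against 29.7 (quartiles 21.7 and 39.8) over all protein-coding genes with a ranked summit. In replicate 1 the median was 21.7 at members, against 17.8 over all protein-coding genes, and in replicate 2 it was 25.5 at members, against 20.6. Of the 90 members with a ranked summit, 46 (51.1%) were at or above 39.8, the upper quartile of all protein-coding genes with one. The genes with a summit are those that the peak caller listed, so these medians leave out the members with none.

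By family, the cct genes had the highest median ranked height, 60.4 over the 6 with a summit (27.8 to 119), and the pfd genes the lowest, 26.8 over 6 (15.7 to 45.7). The core subunits had medians of 48.3 for pas (25.2 to 68.6) and 46.9 for pbs (18.5 to 67.2). In the cap, rpn genes had 46.6 (13.3 to 87.9) and rpt genes 36.6 (31.6 to 58.8). The uba genes had 48 (46 to 54) and the ubc genes 41.8 (22.2 to 185). The dnj genes had a median of 32.7 over 27 genes, between 4.71 at dnj-7 and 125 at dnj-13. The families' ranges overlapped one another, apart from those of pfd and uba.

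**Figure D4:**
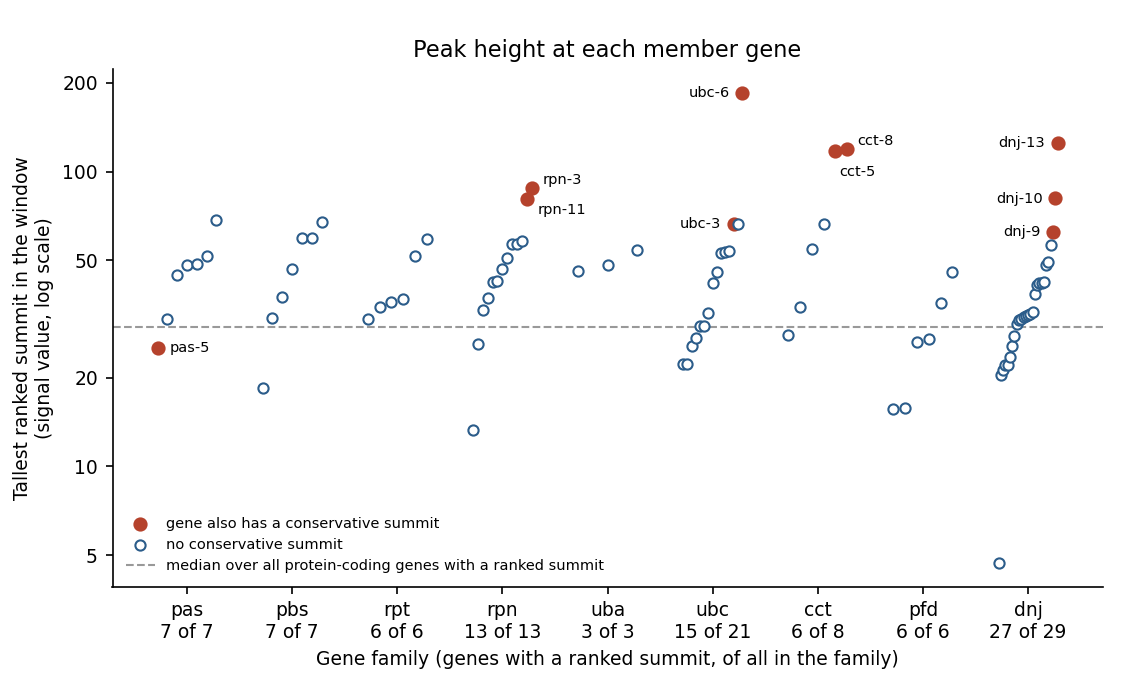
Tallest ranked summit in the window of each member (points, log scale), by family, with filled points for members that also have a conservative summit and a dashed line at the median of all protein-coding genes with a ranked summit (29.7). The filled points are the tallest of the rpn, cct and dnj families and ubc-6 is the tallest of its own, whereas ubc-14 (66.6) stands just above ubc-3 (66.3) and pas-5 stands below the line at 25.2, the tallest ranked summit inside its window.

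Further members stood just outside the threshold. At an IDR of 0.05 or less, 19 members had a ranked summit, against 5.44% of all protein-coding genes. These were 8 proteasome genes, 5 ubiquitin enzyme genes and 6 chaperone genes, so 9 members had an IDR between 0.01 and 0.05. In order of −log10 IDR they were pas-7 (1.85), ubc-14 (1.60), pbs-4 (1.5), rpn-12 (1.49), uba-1 (1.46), rpn-2 (1.45), ubc-9 (1.39), rpn-8 (1.33) and cct-2 (1.31). On the same scale, dnj-9 (2.05) was the conservative member just inside the threshold of 2. The rpn-12 summit lies past the start of rad-23, which reads the other way and begins 395 bp upstream of rpn-12. Which of these genes it belongs to was not tested.

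Among the members just outside the threshold, pas-7, an alpha subunit gene, had the tallest ranked summit of its family, at 68.6. That summit lay 191 bp downstream of the start, and the heights were 34.8 in replicate 1 and 30.2 in replicate 2. The E1 gene uba-1, which starts the ubiquitin cascade, had 54.0, with 37.2 in replicate 1 and 34.1 in replicate 2. The ubc-9 gene, whose product conjugates SUMO in place of ubiquitin, had 53.1, with 26.4 in replicate 1 and 29.0 in replicate 2. The rpn-2 gene, for a large scaffold subunit of the cap, had 58.4, with 34.7 in replicate 1 and 35.8 in replicate 2. These replicate values are the tallest summit anywhere in the window. For rpn-2 the replicate 1 value, and for uba-1 the replicate 2 value, come from another summit than the one named, so they do not compare the same site.

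Some other members were tall in their families. Among core beta subunits, pbs-3 had a ranked height of 67.2, with 20.8 in replicate 1 and 41.9 in replicate 2, and pbs-5 had 59.6, with 19.1 in replicate 1 and 39.9 in replicate 2. The chaperonin gene cct-7 had 66.4, with 16.6 in replicate 1 and 54.6 in replicate 2. For pbs-5 and cct-7 the replicate 1 value comes from another summit in the window. The −log10 IDR of the comparison was only 0.148 at pbs-5 and 0.555 at cct-7. The cap ATPase genes rpt-2 and rpt-3 had 58.8 and 51.8. The E1 gene of UFM1, uba-5, had 48, and the alpha subunit gene pas-1 had 51.6. The prefoldin genes pfd-6 and pfd-1 had 45.7 and 35.7. The pas-1 and pbs-3 summits lie beyond the near end of a same-strand coding gene, which is 107 bp and 23 bp upstream, respectively. At uba-5, which has 3 starts, clec-53 reads the other way and begins 42 bp upstream of the 5′-most start. On which side of that start the uba-5 summit lies was not read. Which gene these summits belong to was not tested.

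**Figure D5:**
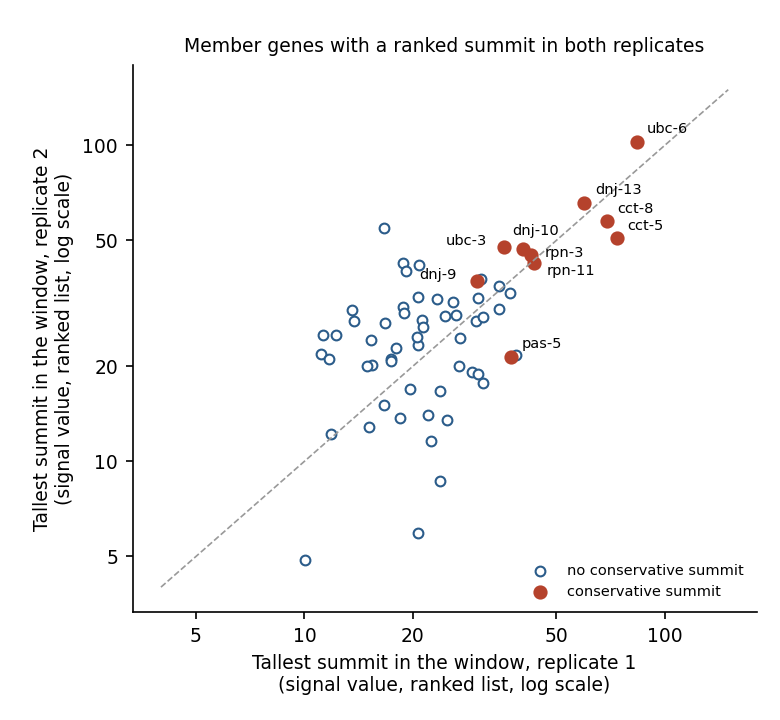
Tallest ranked summit in the window in replicate 1 (horizontal) and replicate 2 (vertical), both log scaled, for the 63 members with a summit in both lists, with the members that have a conservative summit filled and the line of equal height dashed. All the filled points except pas-5 lie within 1.5-fold of the line and above 30 in both replicates. The pas-5 point pairs different summits, 987 bp upstream in replicate 1 and 360 bp upstream in replicate 2.

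Across the 63 members with a ranked summit in both replicates, Spearman's rho of the heights was 0.46 and Pearson's r of their log10 values was 0.55, against 0.43 and 0.52 over 6394 protein-coding genes. These are values across genes of 2 libraries, which share the assay and the gene's window but may differ in the site that is tallest in it, and genes are not independent replicates. Of the 63, 52 (82.5%) differed by less than 2-fold, against 88.1% of all protein-coding genes. The height was greater in replicate 2 at 38 of the 63 members and at 3940 of the 6394 protein-coding genes. Heights were not rescaled between replicates.

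The position of the tallest ranked summit was read by role. It lay within 250 bp upstream of a start in 14 of 33 proteasome genes (42.4%), 1 of 18 ubiquitin enzyme genes (5.56%) and 11 of 39 chaperone genes (28.2%), against 23.6% of all protein-coding genes with one. Within 500 bp upstream it lay in 53 of 90 members (58.9%), against 44.4%, and the groups were closer to one another, at 63.6% of proteasome, 55.6% of ubiquitin enzyme and 56.4% of chaperone genes. The difference between the groups was not tested.

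The 10 members with no ranked summit were 6 conjugating enzyme genes (ubc-1, ubc-15, ubc-17, ubc-19, ubc-23 and ubc-24), the chaperonin genes cct-3 and cct-4, and the J-domain genes dnj-28 and dnj-30. Of these, dnj-30 and ubc-15 had a ranked summit in the list of replicate 1, with signal values of 21.3 and 20.2, and none in replicate 2. The dnj-30 gene also had a summit of 42.5 in the ranked list from pooled reads, so "no ranked summit" here refers to the comparison list. The subunits of the chaperonin ring therefore ran between no listed peak at cct-3 and cct-4 and conservative peaks at cct-5 and cct-8. Only dnj-2 and pfd-4 shared a ranked summit, so the members' peaks are otherwise separate sites.

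Peaks farther upstream were not counted, and 5 members with no conservative summit in the main window had one there. In a window of 2000 bp upstream to 500 bp downstream, a conservative summit was added at pbs-1 (signal value 231, 1486 bp upstream), rpt-2 (124, 1449 bp), cct-7 (79.5, 1351 bp), rpn-12 (73.3, 1932 bp) and rpt-6 (41.0, 1509 bp). Of these, 4 are proteasome genes, so that 7 of 33 had a conservative summit in the wider window. All 5 added summits lie past the start of a coding gene that reads the other way. That neighbour begins 520 bp upstream of pbs-1, 301 bp of rpt-2, 439 bp of cct-7, 395 bp of rpn-12 and 1406 bp of rpt-6. Which gene such a summit belongs to was not tested. In that window 15 of 100 members had one, against 4.12% of all protein-coding genes.

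Partners of these genes in the same pathways were read the same way from a list of 68 genes, chosen with earlier results of these data known. Of these, 14 (20.6%) had a conservative summit, against 2.88% of all protein-coding genes. A ranked summit was found at 54 (79.4%), against 66.0% of all protein-coding genes. Its median height was 41.9, against 29.7. The segregase CDC-48, which pulls ubiquitylated proteins out of complexes, and its cofactors gave 3 of 7, with signal values of 197 at cdc-48.1, 69.6 at ufd-1 and 59.5 at ufd-3. Deubiquitinases gave 4 of 20, with 128 at usp-4, 95.1 at usp-48, 72.6 at math-33 and 72.0 at ubh-4.

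Among single-chain ubiquitin ligases 2 of 7 had a summit, with 244 at eel-1 and 131 at wwp-1, and among cullin ligase genes 2 of 12 had one, with 68.8 at skr-1 and 67.7 at cul-4. Helpers of Hsp90 and Hsp70 gave 2 of 8 (the Hsp90 gene itself was not analysed here), with 109 at ahsa-1, an activator of the Hsp90 ATPase, and 108 at bag-1, a nucleotide exchange factor of Hsp70. Ubiquitin and its relatives gave 1 of 5, the SUMO gene smo-1 at 62.2. None of 4 other E1-like genes and none of 5 proteasome partner genes, skn-1 among them, had one.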

How the data were processed

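Peak lists from anti-GFP chromatin immunoprecipitation of 2 biological replicates were used as deposited on ce11, per the labels. There are 4 thresholded and 4 ranked lists, and each kind covers replicate 1, replicate 2, pooled reads and the replicate comparison. The signal value of each peak and, in the ranked lists, the −log10 of the global IDR are the authors' deposited values. The labels name a possible control, not analysed here. For alignment, peak calling and which control was used, details were not given in the sources used here. Of 120 columns in all, 76 were not used. The lists hold no read counts, so depth is unknown and no counting error could be given. Gene models were those of Ensembl release 115 (WBcel235), over 6 nuclear chromosomes, and summits, windows and sequences were read with Python 3.11.15, pandas 2.3.3 and numpy 2.4.6. The search was tested on simulated data with 200 genes. Members and lists were chosen with earlier results of these data known. Members named are those with a summit in a thresholded list, the 2 tallest of each family, and those with no ranked summit; other members just outside the threshold, with cct-7, were named after their values were seen. The members of the wider window and dnj-7, dnj-2 and pfd-4 were named after their values were seen. No test was made: shares and medians are set beside those of all protein-coding genes. The alternatives, 16 for each count, of which 4 were added after seeing the data, are given in the closing section.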

Additional observations from a re-analysis of the deposited data

How the results depend on the processing

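The count of 10 members with a conservative summit was 8 to 10 under the changes of starts, overlap, assignment, merging, repeats, low records, noncoding windows and autosomes, 9 in the narrower window (2.12% of all protein-coding genes), 15 in the wider window (4.12%) and 7 in the pooled list (2.60%). It was 4 to 5 without either replicate, that is in the list of the other alone, 5 with peaks at or above the median signal value, and 6 of 68 with genes of 1 start. Proteasome genes, 3 at first, numbered 7 in the wider window, 0 without either replicate and 1 with peaks at or above the median. Ubiquitin enzyme genes, 2 at first, numbered 1 in the pooled list, without either replicate and at or above the median, and 0 of 18 with 1 start. Chaperone genes, 5 at first, numbered 3 to 4 without either replicate, and 3 by nearest start and at or above the median. The 14 pathway genes became 9 in the pooled list, 5 to 6 without either replicate, 7 at or above the median and 6 of 37 with 1 start. The share of all protein-coding genes, 2.88%, was 1.19% to 1.41% without either replicate and 1.71% at or above the median. The median ranked height of members was 36 in the narrower window and 45.5 in the wider one, against 27.7 and 32.8 over all protein-coding genes, and 21.7 to 25.5 without either replicate. It was above that of all protein-coding genes in each setting run. Single-replicate lists come from 1 library each; otherwise the cause was not tested. Of the 16 alternatives, the ubc-6, dnj-13 and cct-5 summits were kept in 15, cct-8 and dnj-10 in 14, rpn-3 in 13, rpn-11 and dnj-9 in 12, ubc-3 in 11 and pas-5 in 9. In the setting of genes with 1 start, ubc-6, ubc-3, cct-8 and rpn-11 are left out because they have 2 starts each. That loss, and the 0 of 18 ubiquitin enzyme genes, follow from the filter and not from a lost summit. No paired analysis was possible because there is 1 group.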
